A study of Mus musculus with 2 samples.

Results

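The genes described here are 10 genes that carry glucose into the cell and through glycolysis to lactate, taken in pathway order: Slc2a1, Hk2, Gpi1, Aldoa, Tpi1, Gapdh, Pgk1, Eno1, Pkm and Ldha. They were chosen by name, all 10 were found among the 31053 genes of the deposited feature lists, and all 10 reached a summed count of 100 UMIs (unique molecular identifiers, one per captured RNA molecule) across the pair of libraries, as did 10719 genes in all. The samples were organoids of normal mouse urothelium, the lining of the bladder, grown from wild-type C57BL/6 mice of 8-10 weeks and profiled by droplet single-cell RNA sequencing of 3′ ends. One library came from proliferative organoids (P, NMU-O-P), kept in a complete medium with WNT3A and RSPO1 conditioned media, EGF, Noggin and the TGF-β receptor inhibitor LY2157299. The other came from differentiated organoids (D, NMU-O-D), for which all of these were withdrawn, so that the effects of the single factors and of the conditioned media cannot be told apart. The labels do not say how many mice each library drew on. Both groups shared genotype, strain and the named base medium with its other supplements, and both were dissociated enzymatically before loading. Conditioned media of other cells made up a large part of the P medium by volume and were absent from the D medium. The paper gives no glucose or lactate level for either medium. The comparison asks which transcripts of the pathway differ between the 2 states of the culture.

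Glycolysis splits glucose into pyruvate in a chain of cytosolic enzymes and yields ATP without oxygen. Lactate dehydrogenase then turns pyruvate into lactate, which leaves the cell through monocarboxylate transporters, or pyruvate enters the mitochondrion and feeds the citric acid cycle. Dividing cells commonly run this route at a high rate, and many of its genes are textbook targets of the hypoxia-inducible factors and of MYC.

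After cells with more than 800 detected genes and at most 12% mitochondrial UMIs were kept, P held 6818 cells with 26681469 UMIs and D held 4896 cells with 20305621 UMIs, with a median of 3406 and 3228 UMIs per cell, respectively. Levels are UMIs summed over these cells and divided by the library's total, scaled to 1000000 (CPM). Since a 3′ protocol takes one tag per molecule, CPM was not divided by transcript length. There was 1 library per state, so no difference below has a replicate check. Intervals are exact 95% intervals and cover counting error only. 6 cell barcodes occurred in both libraries. Ribosomal protein genes took 37.5% of the UMIs in P and 21.4% in D, and the median gene was 0.42 higher in D on the log2 scale (taken over the 8939 genes that reached 100 UMIs in P and also in D), so log2 differences are also given with this shift removed. The uroplakin and Krt20 list of 6 luminal genes summed to 20.8 CPM in P and 1245 CPM in D, the 12 proliferation markers to 254.6 and 28.3 CPM, and the 7 basal markers to 6021 and 8292 CPM, so that the proliferation and luminal lists differed in the directions the labels name. Of the lists for cells from outside the epithelium, the 6 fibroblast markers summed to 1.99 CPM in P (3 of them at 0) and 62.5 CPM in D (1 at 0), and the leukocyte, endothelial and erythroid lists stayed at or below 26.7 CPM in both. The 10 genes of the response to dissociation summed to 1336 CPM in P and 2814 CPM in D. The part of these lists in the results was not tested.

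All 10 genes were lower in D than in P. Together they took 165785 UMIs in P and 40955 UMIs in D, that is 6213 CPM (6184 to 6243) against 2017 CPM (1997 to 2037), or 0.621% against 0.202% of all UMIs. The log2 difference of the sum, D over P, was -1.62 (-1.64 to -1.61). The median of the 10 log2 differences was -1.52, or -1.94 with the shift removed, where the median gene stood at 0.41 before removal over the 10719 genes. 8 of the 10 were at least 2-fold higher in P and 0 at least 2-fold higher in D, where the background over the 10719 genes was 4.73% (507 genes) for P and 13.5% (1442 genes) for D. With the shift removed, all 10 passed 2-fold, against 8.65% of all genes (927) for P and 5.64% (605) for D. Each of the 10 kept its sign in all 70 recomputed differences (other scalings or other cell sets). The other scalings subtract a constant (0.34 or 0.42) from every log2 difference, so they could not change a sign. The cell sets come from the same 2 libraries and are not independent checks.

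**Figure D1:**
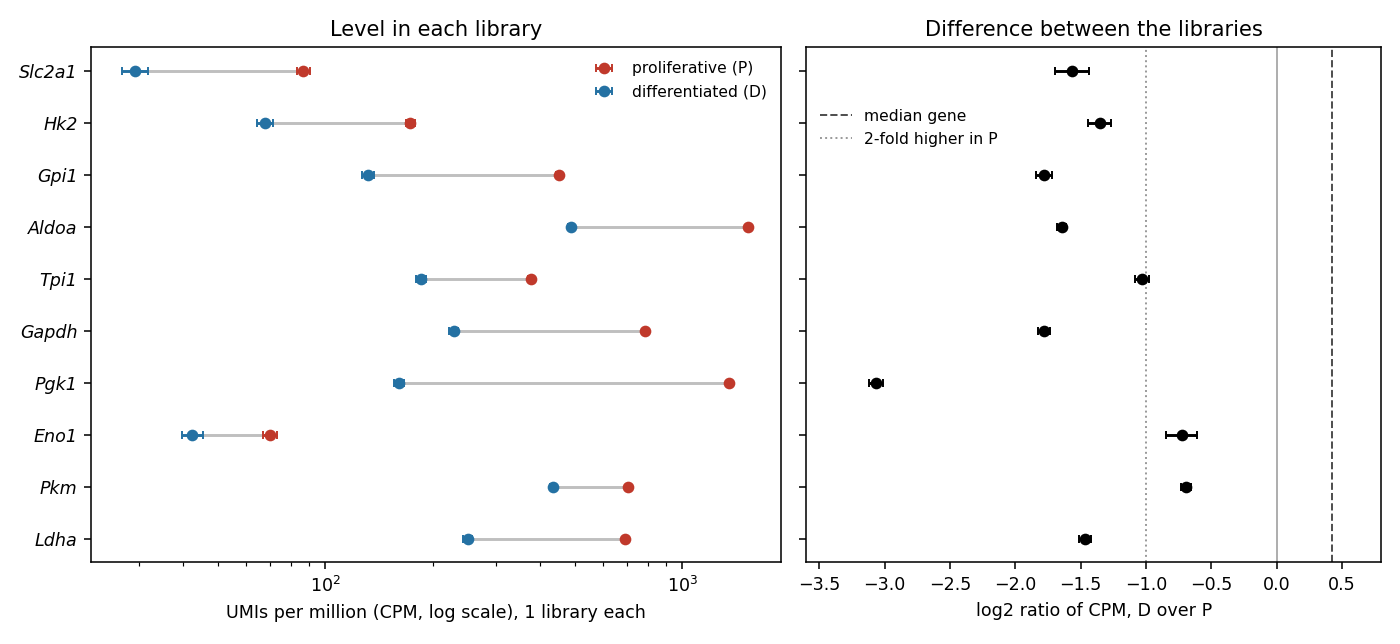
Levels of the 10 genes in pathway order. Left, CPM on a log scale in P (red) and D (blue), 1 library each, with exact Poisson intervals; right, the log2 ratio D over P with its counting interval, the median gene (dashed, 0.42) and a 2-fold higher level in P (dotted). Every point on the right lies below 0, from -3.07 for Pgk1 to -0.70 for Pkm.

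Entry of glucose was lower in D at the transcript level for the main carrier. Slc2a1 (chr4:119108711-119137983, plus strand; coordinates here are those of GENCODE M21 on GRCm38) encodes GLUT1, the facilitative glucose transporter of most epithelia. It had 2312 UMIs in P and 595 in D, 86.7 CPM (83.2 to 90.3) against 29.3 CPM (27.0 to 31.8), a log2 difference of -1.56 (-1.70 to -1.43). Among 8 facilitative carriers with any UMI, Slc2a1 gave 89.0% of the UMIs in P (87.7 to 90.2) and 64.0% in D (60.9 to 67.1). Slc2a12 stood the other way, with 76 UMIs in P against 129 in D (log2 difference 1.16, or 0.74 with the shift removed), and Slc2a6 had 0 in P against 11 in D, at least 4.82-fold higher in D against a floor of 3 UMIs. Slc2a4, which encodes the insulin-regulated carrier GLUT4, had 50 and 71 UMIs. The sodium-coupled carrier Slc5a1 had 70 and 27 UMIs. Of the 12 carriers listed, 5 reached 100 UMIs in all, of which 1 was at least 2-fold higher in P and 1 in D. The background over all genes was 4.73% for P and 13.5% for D. With the shift removed, 1 carrier passed 2-fold for P and 0 for D.

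Hexokinase, which traps glucose as glucose-6-phosphate, differed by isozyme. Hk2 (chr6:82725025-82774454, minus strand), the inducible form, had 4610 UMIs in P and 1374 in D, 173 CPM (168 to 178) against 67.7 CPM (64.1 to 71.3), a log2 difference of -1.35 (-1.44 to -1.27). Hk1, the broadly expressed form, was level on the CPM scale, at 51.6 and 50.6 CPM (log2 difference -0.03, -0.14 to 0.09; -0.45 with the shift removed). Hk2 therefore gave 77.0% of the UMIs of the pair in P (75.9 to 78.1) and 57.2% in D (55.2 to 59.2), a share that does not depend on scaling between libraries. Hk3 and Hkdc1 had at most 1 UMI in either library.

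Gpi1 (chr7:34201330-34230336, minus strand) encodes the isomerase that makes fructose-6-phosphate. It had 12038 UMIs in P and 2672 in D, 451 against 132 CPM, a log2 difference of -1.78 (-1.84 to -1.72). At the phosphofructokinase step, the first committed one, all 3 subunit genes were lower in D, by a log2 difference of -1.79 for Pfkp, -0.93 for Pfkl and -0.65 for Pfkm. The share of Pfkp among the 3 was 36.6% in P and 23.9% in D. Pfkfb3, whose product makes the activator fructose-2,6-bisphosphate, had 208 UMIs in P and 28 in D (log2 difference -2.50), while Tigar, which removes that activator, had 122 and 192 UMIs (log2 difference 1.05, or 0.63 with the shift removed). These are the extremes of a list of 5 genes, of which 2 were lower and 3 higher in D. The list's median was 0.24, or -0.18 with the shift removed. Pfkfb2 had 97 and 87 UMIs (0.24), and Pfkfb4 had 22 and 20 (0.26).

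Aldoa (chr7:126795234-126800751, minus strand) encodes the aldolase that splits the 6-carbon sugar, and it was the most abundant of the 10 genes in both libraries. It had 40707 UMIs in P and 9897 in D, 1526 CPM (1511 to 1541) against 487 CPM (478 to 497), a log2 difference of -1.65 (-1.68 to -1.61). The paralog Aldoc, much rarer, differed by more (729 and 71 UMIs; log2 difference -2.97). Tpi1 (chr6:124810586-124814296, minus strand), the isomerase of the triose phosphates, had 10056 and 3753 UMIs, 377 against 185 CPM. Its log2 difference of -1.03 (-1.08 to -0.97) lay at the 2-fold line.

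The payoff phase opens with Gapdh (chr6:125161715-125166467, minus strand), the dehydrogenase that is often taken as a reference gene. It had 20964 UMIs in P and 4646 in D, 786 against 229 CPM, so its level per UMI differed 3.43-fold (3.33 to 3.55) between the libraries. Pgk1 (chrX:106187100-106203699, plus strand), which makes the first ATP of the chain, stood apart from the other 9. It had 36015 UMIs in P and 3266 in D, 1350 CPM (1336 to 1364) against 161 CPM (155 to 166), an 8.39-fold difference (8.10 to 8.70). Counted from the gene with the largest ratio toward P, its rank was 91 of 10719. Pgk1 took 21.7% of the UMIs of the 10 genes in P (21.5 to 21.9) and 7.97% in D (7.71 to 8.24), and the order of levels differed accordingly: Pgk1 was second to Aldoa in P and sixth in D. The next enzyme, Pgam1, was not among the 10 and had a log2 difference of -1.57 (15092 and 3863 UMIs).

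The last steps before lactate differed least. Eno1 (chr4:150236721-150248879, plus strand), the main enolase, had 1870 UMIs in P and 860 in D, 70.1 against 42.4 CPM, a log2 difference of -0.73 (-0.84 to -0.61). Its level is uncertain, since 80.02% of the 50-base stretches in the last 400 bases of its transcripts also occur in Eno1b, a near-identical gene with 66 and 18 UMIs, and reads that match both may be counted for neither. The same held for 53.7% of the stretches of Gapdh, shared with 4 predicted genes with 11 and 2 UMIs in sum and with Peli2, and for 6.97% of those of Aldoa, shared with Aldoart1. Gpi1 shared 1.91%, and the other 6 genes shared none. Pkm (chr9:59656368-59679375, plus strand), pyruvate kinase, had 18753 and 8814 UMIs, 703 against 434 CPM, a log2 difference of -0.70 (-0.73 to -0.66). Pkm took 11.3% of the UMIs of the 10 genes in P and 21.5% in D, where it was second to Aldoa. UMIs at 3′ ends do not separate its M1 and M2 splice forms. With the shift removed, Eno1 and Pkm had log2 differences of -1.15 and -1.12.

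At the branch to lactate, Ldha (chr7:46841475-46855627, plus strand), the subunit that favours lactate formation, had 18460 UMIs in P and 5078 in D, 692 against 250 CPM, a log2 difference of -1.47 (-1.51 to -1.42). Ldhb, the heart-type subunit, stood the other way at a low level, with 199 and 537 UMIs (log2 difference 1.83). Ldha still gave 98.9% of the UMIs of the pair in P (98.8 to 99.1) and 90.4% in D (89.6 to 91.2). The lactate carriers split in the same manner. Slc16a3 (MCT4), an exporter typical of glycolytic cells, had 1157 UMIs in P and 70 in D (log2 difference -3.65), Slc16a1 (MCT1) had 531 and 139 (-1.54), and Slc16a7 (MCT2), a high-affinity carrier, had 65 and 506 (3.35). Slc16a3 thus gave 66.0% of the UMIs of the 3 carriers in P and 9.79% in D, and Slc16a7 3.71% and 70.8%. Bsg, which encodes the chaperone of MCT1 and MCT4, was level on the CPM scale (565 and 546 CPM).

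**Figure D2:**
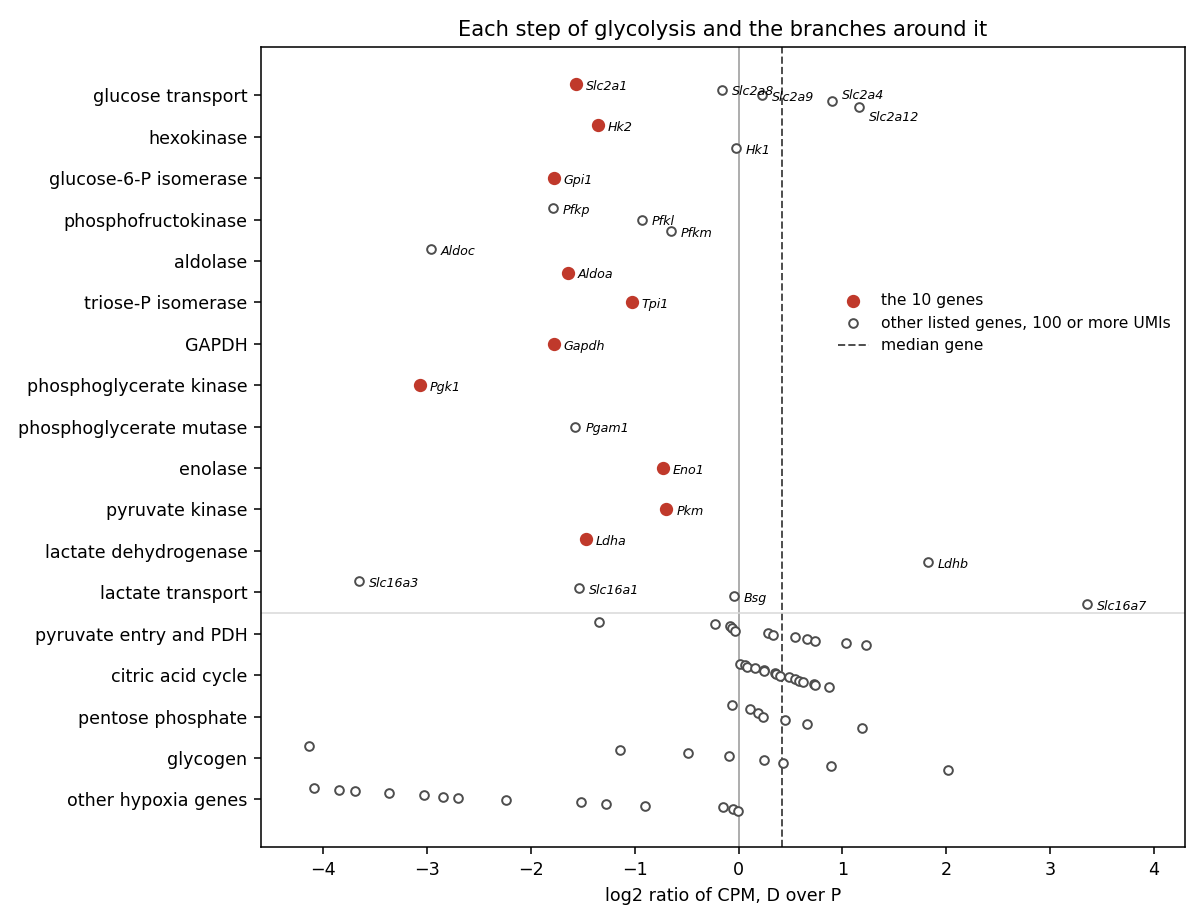
Log2 ratio of CPM, D over P, for the listed genes whose UMIs in the pair of libraries sum to 100 or more, by step of glycolysis (above the line) and by neighbouring route (below it). Filled points are the 10 genes and open points the others; the dashed line is the median gene at 0.42. At every step from the glucose carrier to lactate dehydrogenase at least 1 gene lies below 0, while the 16 citric acid cycle genes lie between 0.01 and 0.87.

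Routes that branch from glycolysis were mixed. Of 16 citric acid cycle genes, 16 were higher in D, none 2-fold, with a median log2 difference of 0.38, or -0.04 with the shift removed. Of 7 pentose phosphate genes, 1 was 2-fold higher in D (Taldo1, 1.19, or 0.77 with the shift removed) and the median was 0.23 (-0.19 with the shift removed). Among 12 genes of pyruvate entry with at least 100 UMIs, Pdk1, the kinase that shuts pyruvate dehydrogenase, was 2-fold higher in P (log2 difference -1.34), and 2 were 2-fold higher in D, the mitochondrial pyruvate carrier subunit Mpc2 (1.23) and Pdhx (1.03). The background was 4.73% of all genes for P and 13.5% for D, and with the shift removed neither Mpc2 nor Pdhx passed 2-fold (0.81 and 0.61). In gluconeogenesis Pcx, pyruvate carboxylase, had 234 UMIs in P and 67 in D (log2 difference -1.41). Of 8 glycogen genes, 2 were 2-fold higher in P (Pygl and Pgm2) and 1 in D (Pygb). Pgm2, a phosphoglucomutase, counted 1470 UMIs in P against 505 in D (-1.15). The liver-type phosphorylase Pygl had 116 UMIs in P against 5 in D, and the brain-type Pygb had 423 and 1306 (log2 difference 2.02). Of the 7 listed regulators, Myc was 2-fold higher in P (801 and 224 UMIs; -1.44), Hif1a was slightly lower in D (-0.29) and Epas1 higher (0.87). Of 14 hypoxia target genes outside glycolysis with at least 100 UMIs, 10 were at least 2-fold higher in P, against 4.73% of all genes. The median of the 14 was -2.47, and the 10 included Egln3 (-4.09), Ero1l (-3.85), Ndrg1 (-3.69) and Vegfa (-3.37). The exceptions included Ddit4 (-0.00), Kdm3a (-0.06) and Bnip3l (-0.16).

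The sequence before the start sites is shown for 4 of the genes. The core letters of a hypoxia response element, ACGTG or GCGTG, were the only ones searched. Whether hypoxia-inducible factors, MYC or other factors had a part in the levels was not tested. The windows are the 250 bases before a RefSeq start (GRCm38.p6, transcribed bases dropped), 5′ to 3′ on the gene's strand, with ACGTG or its complement CACGT in capitals. Slc2a1 lies at chr4:119108495-119108744, Pgk1 at chrX:106186850-106187099, Ldha at chr7:46845554-46845803 and Pkm at chr9:59656326-59656575, all on the plus strand.
Slc2a1: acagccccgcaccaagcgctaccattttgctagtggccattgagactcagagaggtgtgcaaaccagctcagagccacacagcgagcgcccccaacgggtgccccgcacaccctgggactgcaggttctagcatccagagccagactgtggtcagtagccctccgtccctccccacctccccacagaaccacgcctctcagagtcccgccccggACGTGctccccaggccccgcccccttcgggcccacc
Pgk1: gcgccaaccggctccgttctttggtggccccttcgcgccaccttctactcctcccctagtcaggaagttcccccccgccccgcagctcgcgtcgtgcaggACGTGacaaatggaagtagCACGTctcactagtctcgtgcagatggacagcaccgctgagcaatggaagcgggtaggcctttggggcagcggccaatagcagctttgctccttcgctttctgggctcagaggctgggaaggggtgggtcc
Ldha: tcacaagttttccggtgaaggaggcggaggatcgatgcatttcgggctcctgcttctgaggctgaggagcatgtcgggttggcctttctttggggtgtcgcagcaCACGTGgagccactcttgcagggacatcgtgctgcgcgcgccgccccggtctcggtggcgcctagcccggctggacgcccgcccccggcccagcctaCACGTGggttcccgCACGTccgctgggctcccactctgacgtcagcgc
Pkm: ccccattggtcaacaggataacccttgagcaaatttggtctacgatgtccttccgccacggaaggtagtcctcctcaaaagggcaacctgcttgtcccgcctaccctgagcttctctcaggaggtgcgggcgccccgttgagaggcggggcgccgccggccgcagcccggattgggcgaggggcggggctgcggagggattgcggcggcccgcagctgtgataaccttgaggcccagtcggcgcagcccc
Ldha held 3 separate places with these letters, 2 of them the palindrome CACGTG, which reads ACGTG on both strands. Pgk1, with the largest difference, held 2 places, 150 and 131 bases before its start. Slc2a1 held 1 place, 36 bases before its start, and the Pkm window shown held none, although a window at a later Pkm start held 1. Over all 16 windows of the 10 genes, ACGTG was found on either strand for 6 genes (Slc2a1, Hk2, Aldoa, Pgk1, Pkm and Ldha) and GCGTG for 4 (Slc2a1, Gapdh, Eno1 and Ldha), while Gpi1 and Tpi1 held neither. Counted by window, 7 of the 16 held ACGTG and 6 held GCGTG, and of the 32851 RefSeq windows of this length 16.6% held ACGTG and 28.2% GCGTG. Windows of one gene can overlap and count a site again. The ACGTG at 126 bases before Aldoa start 2 and at 202 bases before start 3 is the same site. The GCGTG sites of Eno1 starts 2 and 3 are shared likewise. No share by gene was computed over all genes, so the counts by gene have no background. A match gives letters only, and nothing about binding was measured.

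Cell by cell, the difference was a shift of nearly the whole population. Each cell was thinned at random to 2100 UMIs, which left out 180 P and 479 D cells below that depth. The median P cell then had 12 UMIs of the 10 genes (10th to 90th percentile 5 to 23) and the median D cell 4 (2 to 7). Of the 4417 D cells, 38 (0.860%) reached the P median, and of the 6638 P cells, 537 (8.09%) were at or below the D median. P cells detected a median of 6 of the 10 genes and D cells 3. The spread also differed. The variance of the summed UMIs over cells was 4.17 times the mean in P and 1.40 times the mean in D, where 1 would be counting noise alone. At equal relative spread between cells this ratio rises with the mean, which was 12.97 UMIs in P and 4.20 in D. The 2 ratios are therefore not directly comparable.

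**Figure D3:**
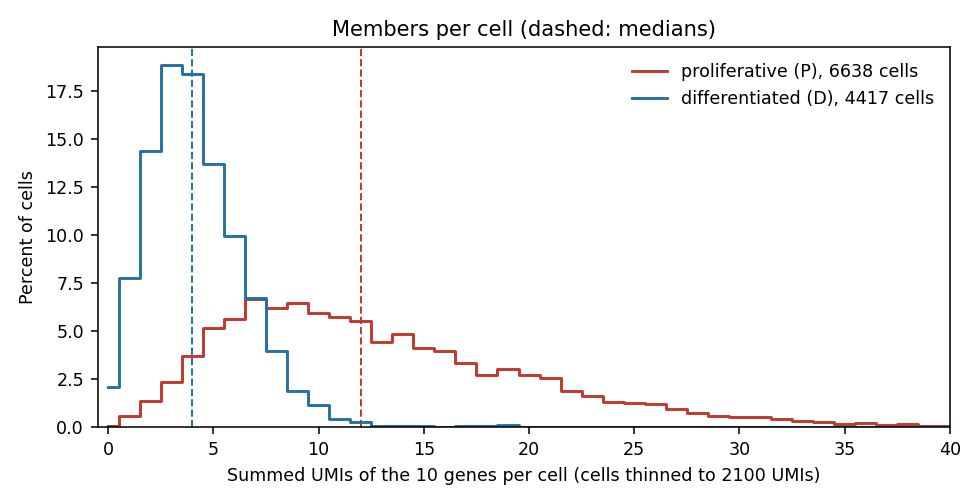
Summed UMIs of the 10 genes per cell after thinning to 2100 UMIs, as percent of the 6638 P cells (red) and 4417 D cells (blue); dashed lines are the medians, 12 and 4. The D cells form a narrow peak and the P cells a broad one; 16 P cells lie beyond the axis end of 40.

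In shares of thinned cells with at least 1 UMI, Pgk1 was found in 84.1% of P cells (83.2 to 84.9) and 26.5% of D cells (25.2 to 27.8), and Slc2a1 in 15.2% (14.3 to 16.1) and 5.71% (5.04 to 6.43). Without thinning the Slc2a1 shares were 24.3% and 10.9%. For Pkm, the gene that differed least, the thinned shares were 72.1% and 57.3%. No cell type that lacks these housekeeping enzymes was at hand as a background level. The lowest share in any cluster was 9.07% in P and 1.38% in D for Slc2a1, and 74.8% and 24.9% for Pgk1. Over thinned P cells the 45 pairwise Pearson correlations of UMIs ran from 0.03 to 0.39 with a median of 0.13, the highest for Aldoa with Pgk1. Over thinned D cells, with fewer counts per gene, they ran from -0.03 to 0.09 with a median of 0.02. Cells of 1 library share its preparation, and the lower counts in D alone bring correlations toward 0.

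Clustering each library gave 4 clusters in P and 3 in D, which are named here by number and leading genes. P0 (2597 cells; Ctla2a, Nbl1, Scnn1b) and P3 (339 cells; Ccna2, Hmmr and other cell cycle genes) summed above their library's level for the 7 basal markers, as did D1 (1310 cells; Acta2, Cav1, Htra1). P1 (2574 cells) was led by Sprr3, Cnfn, Sprr2f and Psca, P2 (1308 cells) by Fmo2, Mmp7 and Slc7a11, D0 (2918 cells) by Reg1, Agr2 and Krt1, and D2 (668 cells) by Ubd and Ankrd1 with Upk3a and Upk3b among its first 10 genes. None of the 10 genes was among the 10 leading genes of a cluster. Some were among the 2000 variable genes used for clustering, so levels by cluster are descriptions.

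For the sum, the gap between libraries was wider than any gap between clusters of one library. The summed level of the 10 genes was 6263 CPM in P0, 6997 in P1, 4337 in P2 and 4906 in P3, and 1982 in D0, 2040 in D1 and 2131 in D2. The highest cluster exceeded the lowest 1.61-fold within P and 1.08-fold within D, and every P cluster stood above every D cluster for the sum. The same was true of each gene except Slc2a1, whose level in P2 (42.6 CPM) was below that in D1 (52.6 CPM). The clusters rich in basal markers, P0 and P3 together and D1, differed in the sum by a log2 difference of -1.57 (-1.60 to -1.53), and the remaining cells by -1.65 (-1.67 to -1.63). In these 2 comparisons 8 and 7 of the 10 genes were at least 2-fold higher in P, where the background in the same cells was 4.59% and 3.42% of the 8379 and 9980 genes that reached 100 UMIs there, and 10 of 10 were lower in D in both.

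Of the 10 genes, Slc2a1 had the largest difference toward the clusters rich in basal markers in both libraries. In P this came from P0, as P3, also rich in basal markers, was level with P1. Slc2a1 reached 146.5 CPM (138 to 155) in P0 against 67.1 CPM in P1, 42.6 in P2 and 68.1 in P3. In D it reached 52.6 CPM in D1 against 26.2 in D0 and 11.98 in D2. The log2 difference of the basal-rich clusters over the other cells was 1.14 (1.02 to 1.26) in P and 1.17 (0.92 to 1.41) in D. Hk2 had its lowest level in D2 (24.0 CPM), against 81.9 CPM in D0 and 56.2 CPM in D1. For the summed level the same difference was -0.06 (-0.08 to -0.05) in P and 0.02 (-0.01 to 0.06) in D. Ldha did not share the pattern of Slc2a1 (0.02 in P, 0.29 in D), nor did Aldoa (-0.12 and -0.33). The carrier Slc16a3 in D was concentrated in D1 (9.49 CPM, against 0.946 CPM in D2), and Slc16a7 in D0 (32.4 CPM, against 9.49 CPM in D1). Ribosomal protein genes took between 34.1% (P1) and 42.2% (P2) of UMIs in the P clusters and between 16.9% (D2) and 22.4% (D0) in the D clusters, and their part in these differences was not tested.

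**Figure D4:**
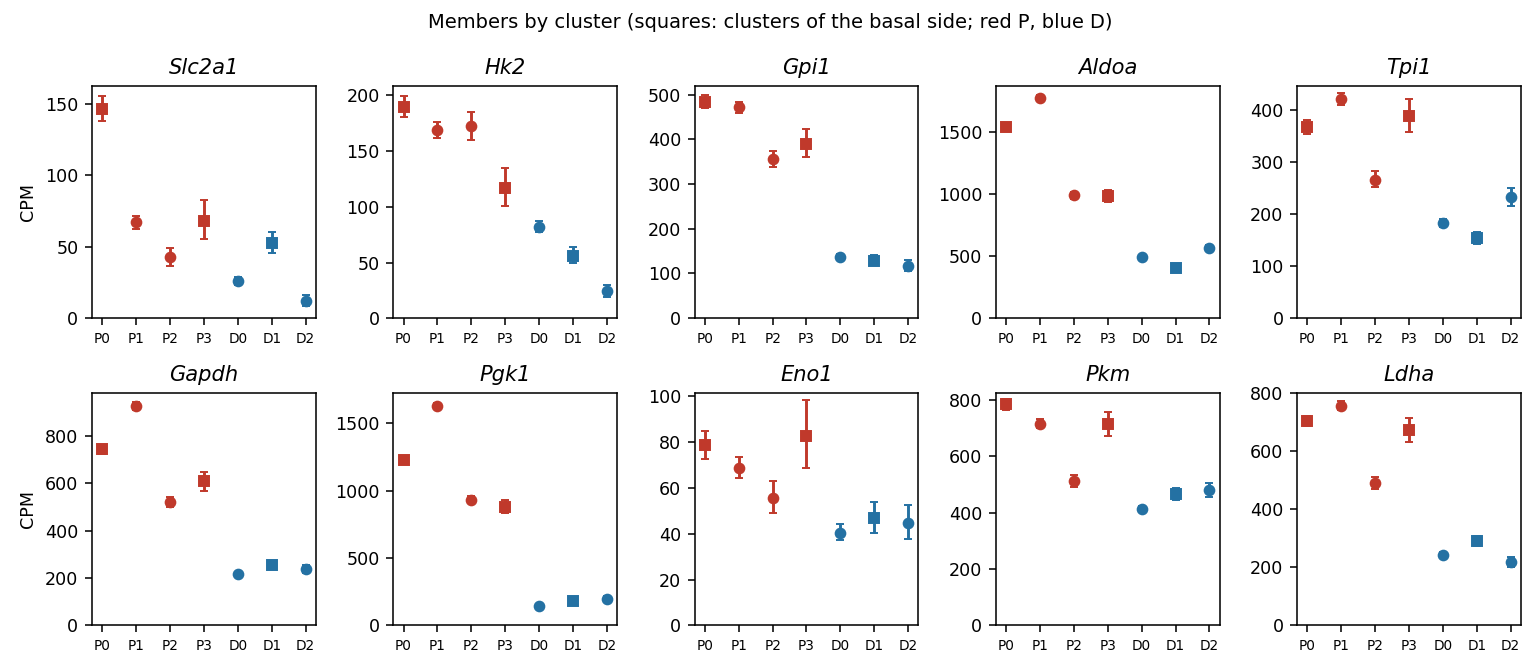
CPM of each of the 10 genes in the 4 clusters of P (red) and the 3 of D (blue), on linear axes from 0 with exact Poisson intervals; squares mark clusters above their library's level of the 7 basal markers. For Pgk1 all P clusters exceed 882 CPM and the D clusters lie between 144 and 199.9 CPM, while Slc2a1 is highest in P0 and, within D, in D1.

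Within P, the 10 genes followed other hypoxia targets from cell to cell. Thinned cells were sorted by how many of 15 hypoxia genes outside glycolysis had a UMI. The summed level of the 10 genes was higher at each step of this count, from 3786 CPM in 706 P cells with 0 hypoxia genes to 5072 CPM in 1445 cells with 2, 7688 CPM in 735 cells with 4 and 10659 CPM in 732 cells with 6 or more. Along a count of the 16 citric acid cycle genes it went from 6569 CPM at 0 genes to 5505 CPM at 6 or more. P cells with at least 2 hypoxia genes (4547 cells) held 7121 CPM and the others 4122 CPM, a log2 difference of 0.79 (0.77 to 0.81). All 10 genes shared that direction, from 1.27 for Slc2a1 (109 and 45.1 CPM) and 0.94 for Aldoa down to 0.54 for Hk2 and 0.41 for Eno1.

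In D the sum of the 10 genes changed little with the count of hypoxia genes up to 3 of them. The sum was 1931 CPM in 1259 D cells with 0 hypoxia genes, 1987 CPM in 1001 cells with 2 and 2149 CPM in 291 cells with 3. It was 3199 CPM in the 53 cells with 4, and 6032 CPM in the only 12 D cells with 5 or more. The count rested on a different mix of genes in the 2 libraries. In P, Ero1l, Egln3 and Bnip3l had 8480, 6989 and 6676 UMIs. In D they had 447, 313 and 4563, and Higd1a and Ddit4 had 2023 and 1749 (4973 and 2301 in P). D cells with at least 2 hypoxia genes differed from the others by 0.11 (0.06 to 0.15) on the log2 scale. The difference between P and D was smaller among cells with few hypoxia genes detected. Because the count rested on a different mix of genes, such cells of P and D are not matched for hypoxia, whose part was not tested. Among thinned cells with at most 1 hypoxia gene, 4 of the 10 genes were at least 2-fold higher in P. The background there was 2.58% of the 7791 genes that reached 100 UMIs. The summed log2 difference was -1.08, against -1.62 over all cells. With 0 hypoxia genes detected, Pgk1 still stood at 757 CPM in P and 162 CPM in D (log2 difference -2.23), Tpi1 at 204 and 182 CPM (-0.16) and Eno1 at 44.5 and 41.98 CPM (-0.08). A cell with 0 of these UMIs at 2100 UMIs may still express the genes, so 0 detected genes is not absence. Oxygen was not measured.

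**Figure D5:**
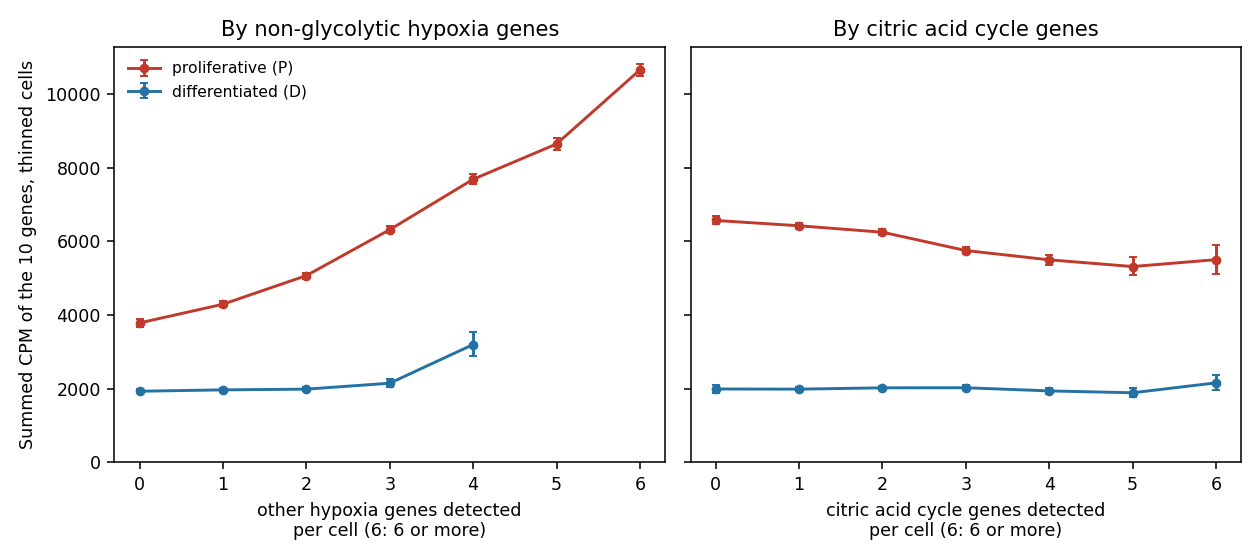
Summed CPM of the 10 genes in thinned cells, by the number of hypoxia genes outside glycolysis with a UMI (left) and by the number of citric acid cycle genes with a UMI (right), in P (red) and D (blue) with exact Poisson intervals; bins under 20 cells are left out. In P the level runs from 3786 to 10659 CPM on the left and goes from 6569 to 5505 CPM on the right, and D stays near 2000 CPM except for 3199 CPM in the bin of 4.

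Cells were also sorted by proliferation genes and by uroplakins, and the sums differed by library. The 326 thinned P cells with at least 2 of 12 proliferation genes held 4725 CPM of the 10 genes and the other P cells 6251 CPM, a log2 difference of -0.40 (-0.45 to -0.35). Aldoa (-0.74), Pgk1 (-0.64) and Hk2 (-0.57) were lower in the cycling cells, and Tpi1 was level (0.01, -0.17 to 0.20). Without cycling cells in either library the summed difference between P and D was -1.64. The 13 cycling cells of D held 2527 CPM and the other D cells 1998 CPM (log2 difference 0.34, -0.02 to 0.68). In D the 2366 thinned cells with a uroplakin UMI held 1997 CPM and the others 2002 CPM (log2 difference -0.00, -0.05 to 0.04). This gate took 53.6% of the thinned D cells, whereas D2, the cluster richest in luminal markers, held 13.6% of the kept D cells. The paper lists uroplakins for intermediate as well as umbrella cells, so the gate does not set luminal cells apart. In P the 171 uroplakin-positive cells held 7778 CPM and the others 6134 CPM (0.34, 0.29 to 0.40). The flat sum in D covered opposite differences. Slc2a1 (-0.97, -1.34 to -0.60), Hk2 (-0.60) and Ldha (-0.37) were lower in the uroplakin-positive cells, and Aldoa (0.22) and Tpi1 (0.35) higher.

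The genes whose pattern over the 7 clusters was most like that of the 10 genes were found by Pearson correlation of log2 CPM. The 10 nearest of 10709 genes were 2610528A11Rik, Ero1l, Arrdc3, Ak4, Pgm2, Bnip3, Pgam1, Ptges, Cmc1 and Eif4ebp1, with r from 0.981 to 0.993 over 7 points of 2 libraries. Each had its higher CPM in P, such as 2610528A11Rik (3020 UMIs in P, 1 in D), Ero1l, an oxidase of the endoplasmic reticulum (8480 and 447), and Bnip3, a mitochondrial mitophagy receptor (3956 and 419). Of the 10709 genes, 112 (1.05%) had r over 0.9. Among the 10 nearest, Ero1l and Bnip3 were on the hypoxia list, Pgam1 on a glycolysis list and Pgm2 on the glycogen list. The shares of these lists among the 10709 genes were not computed, so the overlaps have no background.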

How the data were processed

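Droplet single-cell RNA libraries of P and D organoids (10x Chromium 3′ v3, 1 each) were analysed from the deposited matrices. Per the labels, the authors made the UMI counts with bcl2fastq 2.19.0 and Cell Ranger 3.0.2 on GRCm38, and these whole-number counts per gene and barcode are not normalised. Barcodes with more than 800 genes and at most 12% mt- UMIs were kept, 6818 of 8194 in P and 4896 of 6975 in D. With at least 800 genes, P would keep 6826 and D 4896, the cell numbers that the study states. UMIs were summed per library, since cells are not replicates. With 1 library per state no test was made, a 2-fold ratio stands for a call, and intervals are exact Poisson, conditional binomial or Clopper-Pearson intervals at 95%, which cover counting error only. No interval covers spread between cultures. Cells were thinned to 2100 UMIs without replacement for per-cell measures. Clusters were made with Seurat 5.3.0 in R 4.3.3 (2000 variable genes, 25 components in P and 21 in D, resolution 0.2). Doublets were not removed, because Scrublet in scanpy 1.11.5 called 0 with its automatic threshold in either library. Python 3.11.15, scipy 1.17.1 and numpy 2.4.6 computed the rest, and the ratio and its interval were tested on simulated data. The symbol Aldoa belongs to 2 identifiers, of which ENSMUSG00000030695 was used (the other had 1 UMI in P and 0 in D). Of 10 genes, 10 matched RefSeq promoter windows.

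The text may name the 10 genes, the genes of the pathway, regulator and hypoxia lists, leading genes of clusters and the 10 genes of the most similar pattern. Peli2, Aldoart1 and the predicted genes that share stretches with Gapdh were named after their shared stretches had been seen. The members and lists were chosen with earlier results of these data known. The hypoxia-gene sorting at 5 genes, the set of cells with at most 1 hypoxia gene, the recomputation of single genes under the cell filters, without cycling cells and for means over cells, and the removal of the highest doublet scores were chosen after seeing the data. 1 listed gene is not reported here.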

Additional observations from a re-analysis of the deposited data

Results flagged for a closer look

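Gapdh and Pgk1 stood in opposite directions in the 2 libraries when clusters rich in basal markers were set against the other cells. For Gapdh the log2 difference was -0.19 in P and 0.21 in D, and for Pgk1 it was -0.30 in P and 0.24 in D. These were singled out because the difference has opposite signs with counting intervals that leave out 0 in each library; with 1 library per state the change of sign was not tested. The search covered the 10 genes. Of their neighbours in the pathway, Pgam1 (-0.25 in P and 0.35 in D) and Ldhb (1.81 and -0.81) also had opposite signs with such intervals, likewise not tested. The pooled other cells were not uniform. Pgk1 stood at 1229 CPM in P0, 1627 in P1 and 934 in P2, and Gapdh at 744, 926 and 522. P2 thus lay below P0 for both genes. In D, Pgk1 stood at 183.6 CPM in D1, between 144 in D0 and 199.9 in D2. The signs are therefore not shared by every cluster outside the basal-rich ones.

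Barcodes left out by the cell filter also held UMIs of the 10 genes, which was singled out as signal in barcodes that no comparison above uses. Per 1000000 non-mitochondrial UMIs, the 1376 left-out barcodes of P held 5707 UMIs of the 10 genes and the kept cells 6604. The 2079 left-out barcodes of D held 1525 and the kept cells 2172. Left-out barcodes of P thus stood above kept cells of D, in the same order as the kept cells of both libraries. They come from the same 2 libraries as the kept cells, so this order is not an independent check.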

How the results depend on the processing

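All 10 genes stayed lower in D than in P under each scaling and cell set tried, which comprise counts without mitochondrial and ribosomal protein genes, the median-ratio scaling, a looser and a stricter cell filter, means over cells, removal of cycling cells and cells with at most 1 hypoxia gene. Both scalings lower every log2 difference by a constant and could not change a sign. Without mitochondrial and ribosomal protein genes the median log2 difference of the 10 genes was -1.85 and that of their sum -1.96, and with the median-ratio scaling they were -1.94 and -2.05. Without cycling cells the sum was at -1.64. Among cells with at most 1 hypoxia gene, 4 genes were at least 2-fold higher in P, the median was -0.98 and the sum -1.08; the cause was not tested. The difference between cells with many and few hypoxia genes depended on where they were divided. In P it was 0.84 at 3 genes, 0.88 at 5 and 0.75 at 2 genes after thinning to 1500 UMIs. In D it was 0.31 at 3 genes, 0.16 after thinning to 1500 UMIs and 1.60 at 5 genes, which rests on 12 cells. Shares of cells with an Slc2a1 UMI follow depth, with 11.5% in P and 4.88% in D at 1500 UMIs and 24.3% and 10.9% without thinning. The background share of genes at least 2-fold higher in P was 6.89% with a minimum of 20 UMIs and 16.9% with a minimum of 1 UMI (4.73% at 100), and in D 15.5% and 22.9% (13.5% at 100). Of the other recomputed values for sums, counts, medians and shares, 44 moved by less than their counting interval or, for counts, by less than 1.5 times.

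Removing cells called doublets was planned and could not be run, because no cell was called. Leaving out the 6% of cells with the highest doublet score (409 in P, 294 in D) was tried instead, for the comparisons between clusters and between sorted cells. No paired analysis was possible because each state has 1 library and no result comes from a test.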
